A study of Rattus norvegicus with 4 samples.

Results

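Glutamate and glutamine handling was followed through 9 genes in cells sorted from cultures of olfactory ensheathing cells. The enzymes were Glul, Glud1 and Gad1, the last of which makes GABA. The glutamate transporters were Slc1a1, Slc1a2 and Slc1a3, and the glutamine transporters were Slc38a1, Slc38a2 and Slc38a3. The genes were taken by name, and every non-control probe on the array that carried one of these names was read. All 9 genes were on the array, with 17 probes, and 6 of them had a probe bright enough to be tested, out of 22193 tested genes in all. Of these 22193, 10675 matched a gene symbol, and each remaining name on the array was counted as a gene.

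Cultures of olfactory ensheathing cells, the glia that wrap the axons of olfactory sensory neurons, were grown from male Fischer rats. Their cells were separated by flow cytometry into p75High cells and p75Low cells, at a stated purity of 98%, by the amount of the neurotrophin receptor p75. The labels name 4 biological replicates, each with a p75High and a paired p75Low sample, without naming the animals or cultures behind them; the p-values rest on the variation among these 4 pairs, which may be technical in part. Both populations went through the same culture and sort, no drug or genetic change is named, and no age is stated for the animals. The cDNA was amplified by a global PCR, and each of the 4 two-colour arrays carried Cy5 on the p75High side and Cy3 on the p75Low side, so a dye effect and a population effect cannot be told apart.

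In nervous tissue, astrocytes and related glia clear glutamate released by neurons through sodium-coupled transporters, convert it to glutamine with glutamine synthetase, and export glutamine for neurons to turn back into glutamate or GABA. Glutamate dehydrogenase links the same pool to the citric acid cycle in mitochondria. Glutamine synthetase is also made by macrophages and microglia, and it is widely used as a marker of astrocytes and other glia.

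Each probe is a 60-base DNA strand that reads a short stretch of a transcript. The probes whose letters are printed here are among those of genes whose probes disagreed or had only 1 probe read in these cells. Positions are those of the array file on build rn4. The Glud1 pair lies on chromosome 16, plus strand, with probe 1 at chr16:9998014-9998073 and probe 2 spread over chr16:9994290-9995260, a span of 971 bases that is longer than the probe. The Slc1a2 and Gad1 probes lie on chromosome 3, plus strand, at chr3:87988361-87988420 and chr3:52813028-52813087. Slc38a2 probe 2, which was too dim to be tested, lies on chromosome 7, minus strand, at chr7:135370146-135370205. The Slc38a2 ratio comes from probe 1, whose letters are not printed. All are in lower case, 5′ to 3′.
Glud1 probe 1: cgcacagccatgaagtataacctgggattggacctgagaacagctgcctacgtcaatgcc
Glud1 probe 2: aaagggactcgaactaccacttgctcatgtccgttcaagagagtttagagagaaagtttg
Slc1a2 probe 1: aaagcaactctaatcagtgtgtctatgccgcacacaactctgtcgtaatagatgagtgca
Slc38a2 probe 2: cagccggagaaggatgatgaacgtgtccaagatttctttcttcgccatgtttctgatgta
Gad1 probe 1: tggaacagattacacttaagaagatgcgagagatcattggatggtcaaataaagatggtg

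The sort itself was visible in the arrays. The gene for p75, Ngfr, stood higher in p75High cells with a log2 ratio of p75High over p75Low of 5.80 ± 0.53 (SD, n = 4; limma adjusted p = 0.0262). Across all tested genes, 69 were higher and 97 were lower in p75High cells, and the array-to-array correlation of the ratios over genes was between 0.174 and 0.25. The number of probes that the scanner software marked as well above background was 22464 to 28062 in p75High cells and 23044 to 26174 in p75Low cells. The median SD of a gene's ratio over the 4 arrays was 1.14 on the log2 scale, so that a 4-array mean of a typical gene carried a wide error.

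None of the 6 tested genes passed the threshold (limma, Benjamini-Hochberg adjusted p under 0.05 over all genes), against 0.748% of all tested genes, 0.311% higher and 0.437% lower. Glul came nearest. The mean ratio was negative for Glul, Glud1, Slc1a2 and Gad1 and positive for Slc38a1 and Slc38a2. The ratio was below 0 on all 4 arrays for 3 of the 6 (Glul, Glud1 and Gad1), where 13% of all tested genes had this, and above 0 on all 4 arrays for 1 (Slc38a1), where 12.5% had this. The levels of the 2 populations did not overlap for 1 of the 6, Glul, where 7.67% of all tested genes did not overlap. Slc38a1 entered the test through p75High cells alone and Gad1 through p75Low cells alone, the populations in which they were brighter, so their signs are partly fixed by the filter and nothing is read from the counts of signs. The median ratio over the 6 genes, these 2 included, was -0.43, and over all tested genes it was -0.03. The median of the 6 lies midway between Gad1 (-0.82) and Slc1a2 (-0.05). The filter therefore partly fixes it too, and nothing is read from it.

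**Figure D1:**
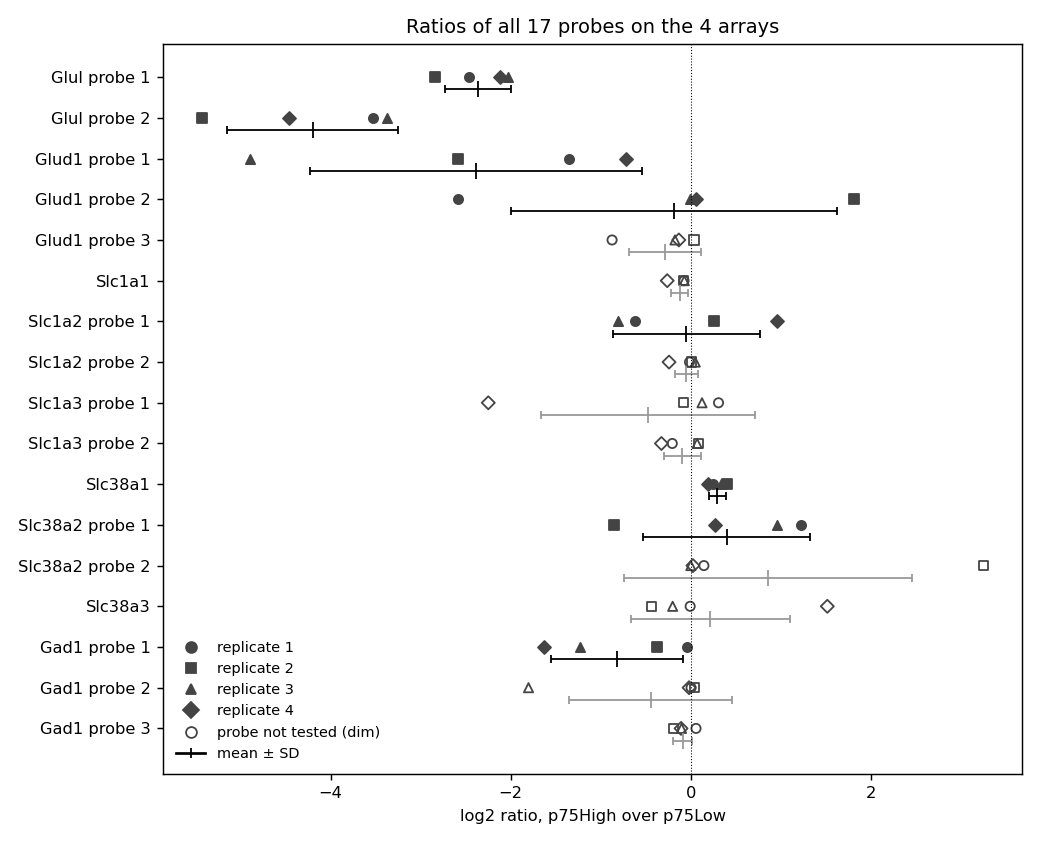
Log2 ratio of p75High over p75Low for each of the 17 probes on each of the 4 arrays (markers by replicate), with the mean and SD over arrays under each row. Hollow markers are probes too dim to be tested. Both Glul probes lie below 0 on every array, while the Glud1 probes spread from -4.89 to 1.81.

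Glul encodes glutamine synthetase, the enzyme that joins ammonia to glutamate. On its brighter probe (A_44_P458704) the normalized log2 intensity was 10.33, 10.20, 10.59 and 11.15 in p75High cells of replicates 1 to 4, against 12.80, 13.05, 12.62 and 13.27 in p75Low cells. Every p75Low value lay above every p75High value, with 1.47 between the nearest of them. The level averaged 10.57 ± 0.42 in p75High cells and 12.94 ± 0.28 in p75Low cells (SD, n = 4 each).

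The ratio within each array was -2.47, -2.84, -2.03 and -2.12, which gives a mean of -2.37 ± 0.37 (SD, n = 4), or a 5.15-fold lower level in p75High cells. The 95% interval of the mean was -3.15 to -1.58, and the limma adjusted p was 0.0678, so the gene missed the threshold. It ranked 236 of 22193 genes by p. Its spread between arrays was small for this series: 13.6% of tested genes had an SD as low or lower.

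The second Glul probe (A_44_P381069) was dimmer in p75High cells, at 7.42, 6.82, 5.78 and 7.49, against 10.95, 12.25, 9.16 and 11.95 in p75Low cells. In p75High cells of replicate 3 it was not well above background. The populations again did not overlap, with a gap of 1.66 between the nearest values. The ratios were -3.53, -5.43, -3.37 and -4.46, with a mean of -4.20 ± 0.95 (SD, n = 4) and an adjusted p of 0.053 in the limma fit over all kept probes, where the brighter probe had 0.0717. The array file gives no position for either Glul probe. The 2 probes are annotated to the same transcript record and were read in the same samples, so they are not replicates of each other. With the median of both probes in place of the brighter one, the Glul ratio was -3.28, with an adjusted p of 0.0504. Ignoring the pairing gave an adjusted p of 0.0144 for Glul, the only setting of 12 in which the gene passed. In RNA from many cells, fewer cells with a transcript and less of it per cell cannot be told apart.

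**Figure D2:**
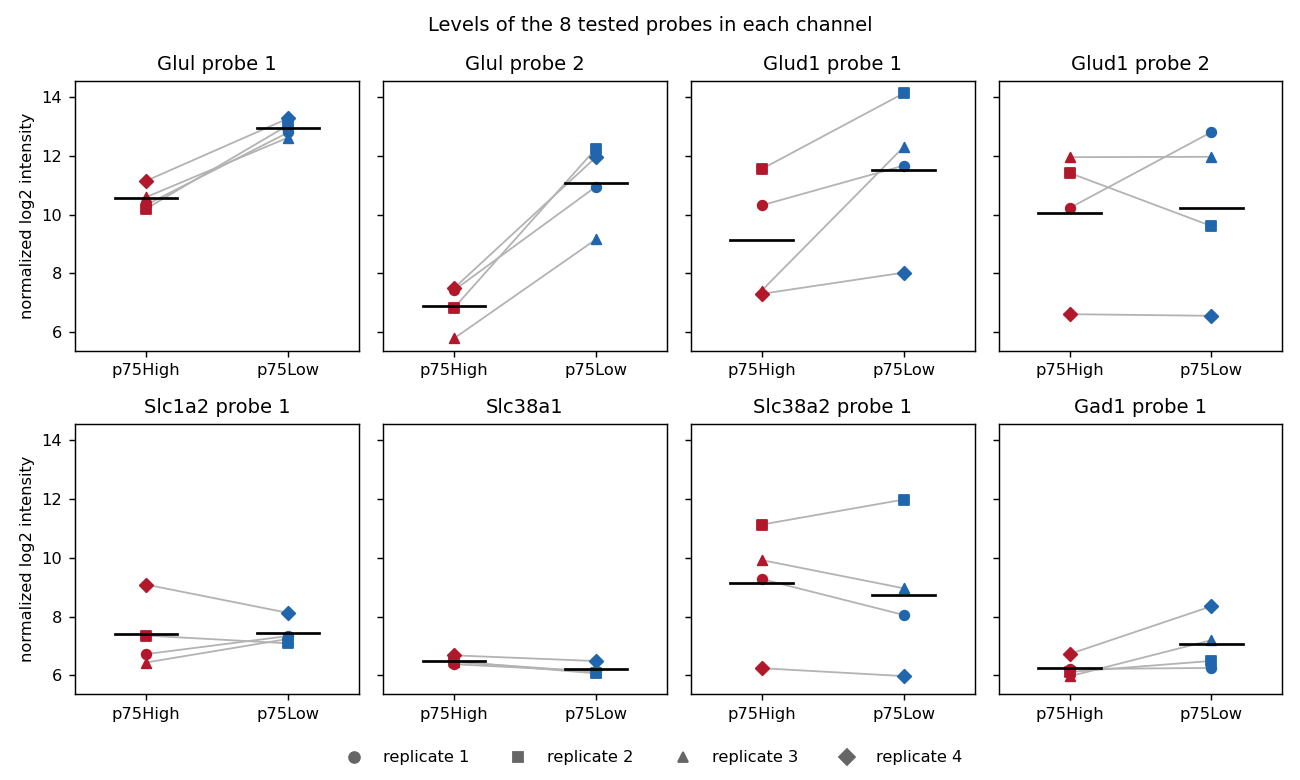
Normalized log2 intensity of the 8 tested probes in p75High cells (left in each panel) and p75Low cells (right), with grey lines joining the channels of 1 array and black bars at the group means. Every line of both Glul panels climbs to the p75Low side, and the lines of Glud1 probe 2, Slc1a2 and Slc38a2 run in both directions.

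Markers of microglia and macrophages moved the same way as Glul. Of 14 listed, 12 were tested, 9 were lower in p75High cells and 11 had a negative ratio on all 4 arrays, with a median ratio of -4.97. Their summed intensity was 9359.9 to 18392.7 in p75High cells and 276437.6 to 447156.3 in p75Low cells, and none of the 12 was below background on every array of a population. The largest ratios past the threshold belonged to the protease cathepsin S (Ctss, -6.11 ± 0.79), the colony-stimulating factor receptor (Csf1r, -6.08 ± 0.61) and the macrophage surface receptor of the adhesion family (Adgre1, -5.87 ± 0.69; SD, n = 4, limma adjusted p = 0.0262 for each). Each value is from the brightest kept probe of the gene. Of the other kept Csf1r probes, A_44_P226109 read -0.25 ± 0.25 and A_44_P503932 read 0.41 ± 0.38 (SD, n = 4). Their adjusted p was 0.724 and 0.596 in the limma fit over probes, so the Csf1r probes disagreed. The other kept Ctss probe read -5.28 ± 0.65 (SD, n = 4). The part of these markers in the Glul result was not tested.

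Marker lists of other cell types had medians nearer 0. Of 12 ensheathing glia markers, all tested, Ngfr alone was called higher, and the median ratio was 0.91, with summed intensities of 34600.6 to 50807.8 in p75High cells and 4542.4 to 15573.7 in p75Low cells. Ngfr encodes p75, by which the cells were sorted, so its call is no separate reading of this list. The sums include it, at a mean log2 level of 13.48 in p75High cells and 7.68 in p75Low cells. In p75Low cells the microglia and macrophage sum given above was larger, at 276437.6 to 447156.3. Sums also depend on the probes of each list, and the cell make-up of the populations was not tested. Among 8 astrocyte markers, which share Gfap with the ensheathing list, 6 were tested, 0 were called and the median was 0.08, with sums of 767.75 to 5197.4 in p75High cells and 927.25 to 2125.7 in p75Low cells. The water channel Aqp4 and the gap junction gene Gja1, which mark astrocytes, had no probe bright enough to be tested. Neuron markers (8 tested, 0 called, median -0.13) had sums of 4523.1 to 12012.8 in p75High cells and 5015.6 to 9171 in p75Low cells. Slc32a1, which the neuron list shares with the GABA list, had the highest mean log2 level of them, 12.05 in p75High cells and 12.27 in p75Low cells. It therefore weighs heavily in these sums. Fibroblast markers (5 of 8 tested, 0 called, median -0.99) had sums of 60567.3 to 79277.7 in p75High cells and 13213.3 to 32665.2 in p75Low cells, a sum and a median that ran in opposite directions. That median is the ratio of Thy1, tested through p75Low cells alone, so the filter partly fixes its sign. The probes also matter: a dimmer Col1a1 probe (A_44_P238421) read 3.79 ± 0.58 (SD, n = 4). Its adjusted p was 0.0363 in the limma fit over probes. Col1a2 ran the other way, at -2.71 ± 1.48 (SD, n = 4).

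Glud1 encodes glutamate dehydrogenase, which converts glutamate to 2-oxoglutarate and ammonia in mitochondria. On probe 1 (A_44_P259908), the brightest, the level was 10.32, 11.55, 7.41 and 7.30 in p75High cells, against 11.67, 14.13, 12.31 and 8.03 in p75Low cells. Each array read lower in p75High cells, but the populations overlapped, and replicates of a population lay up to several log2 units apart. The ratios were -1.35, -2.58, -4.89 and -0.72, with a mean of -2.39 ± 1.84 (SD, n = 4; 95% interval -4.45 to -0.32) and a limma adjusted p of 0.35.

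Glud1 probe 2 (A_44_P472500) did not show the same order. Its level was 10.22, 11.42, 11.96 and 6.61 in p75High cells and 12.81, 9.61, 11.97 and 6.55 in p75Low cells, which gives ratios of -2.59, 1.81, -0.01 and 0.06 and a mean of -0.18 ± 1.81 (SD, n = 4; adjusted p = 0.932 in the limma fit over probes). Replicate 2 was lower on probe 1 and higher on probe 2. Replicate 3, the lowest on probe 1, was near 0 on probe 2. Probe 3 (A_43_P14157, chr16:9999144-9999203) was well above background on 1 array of p75Low cells and on 0 arrays of p75High cells, and its ratio was -0.29 ± 0.40 (SD, n = 4). The means of all 3 probes were below 0 and differed in size, and probe 2 did not keep 1 sign across arrays. Without replicate 1 the mean of probe 2 was 0.62, and probe 3 lay mostly at background. The shared sign of the means is therefore not read as agreement. Without replicate 2 or without replicate 4 the second probe became the brightest, and the Glud1 ratio was then -0.85 or -0.26. It was -1.55 without replicate 3 and -1.29 as the median over the kept probes.

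Slc1a2 encodes GLT-1 (EAAT2), the main glutamate transporter of mature astrocytes. Probe 1 was well above background in both channels of all 4 arrays. Its level was 6.72, 7.35, 6.44 and 9.09 in p75High cells, against 7.34, 7.09, 7.24 and 8.13 in p75Low cells. Replicate 4 was the brightest in both populations, and the populations overlapped.

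The Slc1a2 ratio was -0.61, 0.26, -0.80 and 0.96, with a mean of -0.05 ± 0.82 (SD, n = 4; limma adjusted p = 0.966) and a 95% interval of -1.15 to 1.05, so neither direction was shown and sizable differences either way were inside the interval. The sign of the mean turned with median centring (0.12) and when replicate 1 (0.14) or replicate 3 (0.20) was left out. A second probe (A_44_P226231, chr3:87993033-87993092), printed 10 times on the array and annotated to another transcript record, was not well above background on any array of either population.

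Slc1a3 encodes GLAST (EAAT1), the glutamate transporter of radial glia and Bergmann glia as well as astrocytes. Neither of its 2 probes was bright enough to be tested. Probe 1 (A_42_P533183, chr2:58270419-58270478, minus strand) was well above background on replicate 4 alone, where it read 7.31 in p75High cells and 9.56 in p75Low cells, a ratio of -2.25. On replicates 1 to 3 the ratio was 0.31, -0.08 and 0.13 at background level, and with no filter on dim probes the limma adjusted p was 0.764. Probe 2 (A_44_P167719, chr2:58270881-58270940) was not well above background anywhere.

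Slc1a1 encodes EAAC1 (EAAT3), a transporter of glutamate and cysteine found mostly in neurons. Its 1 probe (A_44_P251706, chr1:232551013-232551072, plus strand, printed 10 times) was not well above background on any array. The measured levels were 6.07 to 6.20 in p75High cells and 6.14 to 6.46 in p75Low cells, which carry no order at this brightness.

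**Figure D3:**
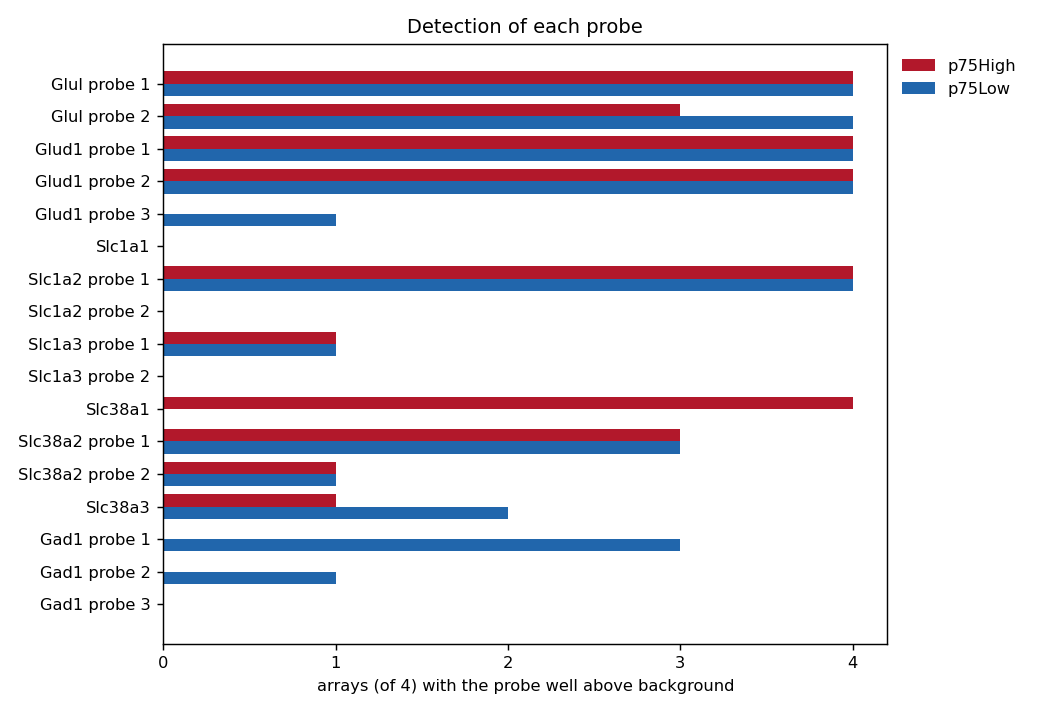
Number of arrays, of 4, on which each probe was well above background in p75High cells (upper bar of each pair) and in p75Low cells (lower bar). Glul probe 1, Glud1 probes 1 and 2 and Slc1a2 probe 1 were read on all 4 arrays in both populations, Slc38a1 on 4 arrays of p75High cells alone, and 4 probes on no array.

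Slc38a1 encodes SNAT1, a sodium-coupled carrier that brings glutamine into cells. Its 1 probe (A_44_P264785, chr7:135254473-135254532, minus strand) was well above background in p75High cells on 4 arrays and in p75Low cells on 0 arrays. The level was 6.38, 6.47, 6.46 and 6.68 in p75High cells, against 6.13, 6.06, 6.12 and 6.48 in p75Low cells. Each array was brighter in p75High cells, while replicate 4 of p75Low cells reached the p75High range.

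The Slc38a1 ratios were 0.25, 0.41, 0.34 and 0.19, the smallest spread among the 6 genes, with a mean of 0.30 ± 0.10 (SD, n = 4; limma adjusted p = 0.647). Because limma draws each gene's variance toward that of all genes, a small spread on 4 arrays did not by itself give a small p. The probe entered the test through p75High cells alone, so its direction is partly fixed by the filter, and the p75Low level is only a bound. All its levels were dim, at 6.06 to 6.68 over both populations. The scanner software's own ratios gave 2.06 for it, so the size of the ratio depended on the processing. Neither 0.30 nor its small spread is therefore read as a precise measure of the difference. The part of the offset used in the background step, given below, in this small ratio and spread was not tested.

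Slc38a2 encodes SNAT2, a related carrier of small neutral amino acids that cells raise when amino acids are short. Probe 1 (A_44_P104652, chr7:135365535-135365594) read 9.28, 11.13, 9.92 and 6.24 in p75High cells, against 8.06, 11.98, 8.96 and 5.97 in p75Low cells. Replicate 4 was dim in both populations and not well above background in either. The ratios were 1.22, -0.85, 0.96 and 0.27, with a mean of 0.40 ± 0.93 (SD, n = 4; limma adjusted p = 0.722; 95% interval -0.79 to 1.59).

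Replicates of Slc38a2 differed by far more than the populations did, and both channels of an array moved together. Probe 2 was well above background on replicate 2 alone, with 11.15 in p75High cells and 7.90 in p75Low cells, a ratio of 3.25. On that array probe 1 ran the other way. On the other arrays the probe 2 ratios were 0.15, 0.00 and 0.02 at background level.

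Slc38a3 encodes SNAT3, the glutamine carrier that astrocytes use for export. Its 1 probe (A_42_P703023, chr8:112899099-112899158, minus strand) was well above background in p75High cells on replicate 4 and in p75Low cells on replicates 2 and 4, too few to be tested. It read 6.20, 6.25, 6.05 and 8.42 in p75High cells and 6.20, 6.68, 6.25 and 6.90 in p75Low cells. The ratio was 1.52 on replicate 4 and -0.01 to -0.43 on the others.

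Gad1 encodes the larger glutamate decarboxylase, which makes GABA from glutamate and is a marker of inhibitory neurons. Probe 1 was well above background in p75Low cells of replicates 2, 3 and 4 and in p75High cells of none. Its measured level was 6.21, 6.11, 5.96 and 6.72 in p75High cells, against 6.25, 6.49, 7.20 and 8.35 in p75Low cells. The populations overlapped at the dim end, and replicates 3 and 4 of p75Low cells stood above all p75High values.

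The Gad1 ratios were -0.04, -0.38, -1.23 and -1.63, with a mean of -0.82 ± 0.74 (SD, n = 4; limma adjusted p = 0.467). This probe entered the test through p75Low cells alone, so its direction too is partly fixed by the filter, and the p75High level is only a bound. Probe 2 (A_44_P536310, chr3:52828914-52828973) was above background in p75Low cells of replicate 3 alone, with a level of 7.45 and a ratio of -1.80, and probe 3 (A_44_P115461, spread over chr3:52815087-52817521) nowhere. The scanner software's ratios gave -2.57 for probe 1, so the size of this ratio too depended on the processing.

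**Figure D4:**
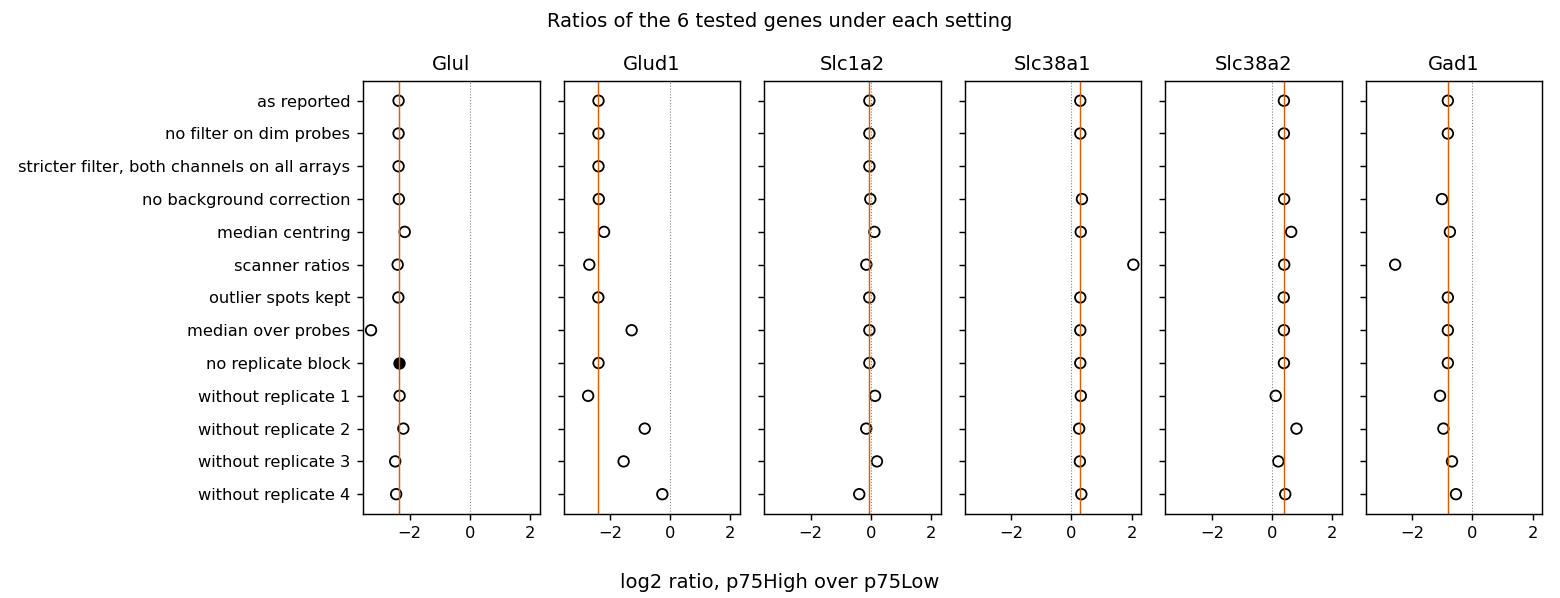
Log2 ratio of p75High over p75Low for the 6 tested genes as reported (top row, orange line) and under each other setting. A filled circle marks an adjusted p under 0.05, which was reached by Glul alone, without the replicate block. A gene that a setting left out has no circle.

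Around these genes, 73 other genes of glutamate, glutamine, GABA and amino acid handling were listed, of which 68 were on the array and 51 were tested. Of those, 0 were higher and 1 was lower in p75High cells. Levels did not overlap for 5 of the 51 (Slc38a7, Pycr1, Slc7a5, Ppat and Grm7, picked here after their values were seen), against the 7.67% of all genes. Ppat, well above background on 1 array of p75High cells and 4 arrays of p75Low cells, was tested through p75Low cells alone.

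The gene that fell was Slc38a7, which encodes SNAT7, a carrier that moves glutamine out of lysosomes. On its 1 kept probe the level was 8.29, 6.58, 6.42 and 7.95 in p75High cells, against 11.52, 11.71, 10.84 and 13.52 in p75Low cells, with 2.56 between the nearest values. The ratios were -3.23, -5.13, -4.43 and -5.57, a mean of -4.59 ± 1.02 (SD, n = 4), or 24.1-fold lower in p75High cells (limma adjusted p = 0.0494). The call stood close to the threshold: it was past it in 7 of 12 other settings, and adjusted p was 0.0973 with no filter on dim probes and 0.106 to 0.211 when any 1 replicate was left out. In the limma fit over all kept probes the same probe had an adjusted p of 0.0515 and was not past it. The microglia and macrophage markers given above moved with it too, and their part in this result was not tested.

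Of 22 other enzymes of glutamate and glutamine, 12 were tested and 0 were called, with ratios from -1.72 to 1.56 and a median of -0.24. The smallest p belonged to Pycr1, which makes proline in mitochondria, at -1.29 ± 0.42 and below 0 on all 4 arrays (SD, n = 4; limma adjusted p = 0.26). Gclc, the catalytic subunit of the enzyme that starts glutathione synthesis, read -1.12 ± 1.01 (adjusted p = 0.43 by limma). Gclc was well above background on 3 arrays of p75Low cells and 0 arrays of p75High cells, so the filter partly fixes its direction and its p75High level is only a bound.

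Of 8 genes for GABA breakdown, transport and further synthesis, 6 were tested and 0 were called, with a median of -0.15. Abat, the transaminase that degrades GABA, read 0.38 ± 0.31 (SD, n = 4; limma adjusted p = 0.604). Slc32a1, the vesicular GABA transporter, read -0.22 ± 0.06, negative on all 4 arrays (limma adjusted p = 0.726). Both differences were small beside the spread of other genes.

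Of 22 other carriers of amino acids, which include Slc38a7, 14 were tested, 0 were higher and 1 was lower, with a median of -0.08. Of 21 glutamate receptors, 19 were tested and 0 were called, with a median of 0.06. The kainate receptor subunit Grik5 read 1.09 ± 0.70 and was positive on all 4 arrays (SD, n = 4; limma adjusted p = 0.367). The metabotropic receptor Grm7 read -0.79 ± 0.48 and was negative on all 4 (limma adjusted p = 0.417).

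**Figure D5:**
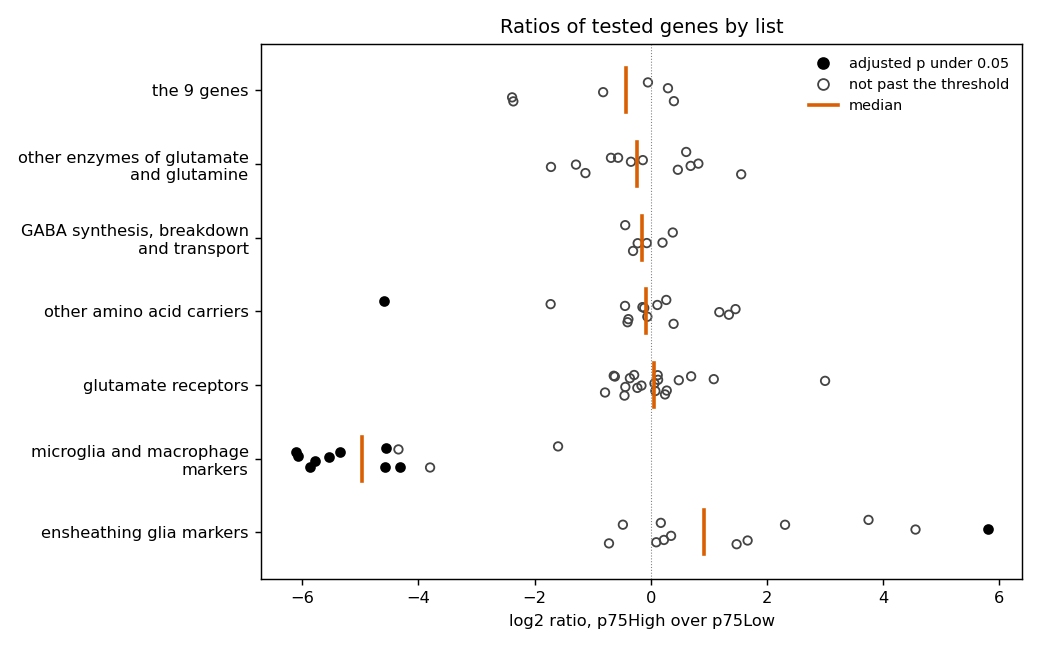
Log2 ratio of p75High over p75Low for each tested gene of the 9 genes, the 4 surrounding lists and 2 marker lists, with the median of each list in orange. Filled circles have an adjusted p under 0.05. Slc38a7 is the filled circle among the amino acid carriers, and the microglia and macrophage markers lie at a median of -4.97.

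Genes with a pattern close to that of Glul were found over the 8 channel values (4 arrays, both populations), each gene centred on its own mean, among 10617 candidates with a gene symbol. Among the closest were Fam174c, at a Euclidean distance of 0.988, and Psmb11, a proteasome subunit of the thymus, at 1.02, where the Glul pattern itself has a length of 3.46. Their ratios were -2.35 ± 0.37 for Fam174c (SD, n = 4; limma adjusted p = 0.0684) and -2.49 ± 0.42 for Psmb11 (adjusted p = 0.0666 by limma). Both had a negative ratio on all 4 arrays, and neither passed the threshold. They were picked for their likeness to Glul, so the sign and size of their ratios follow from that choice. No such search was made for Slc1a3, which was too dim to be tested.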

How the data were processed

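Per the file headers, the arrays were Agilent design 014879, scanned and quantified by Feature Extraction 10.5.1.1, with 10.5 in the submitters' processing notes, all on 1 slide and in 1 scan. The deposited intensity values were, per the file headers, mean spot and median background signals in each channel, not normalized. The deposited log10 ratios of Cy5 over Cy3 were the scanner software's own, background-subtracted and dye-normalized, per the file headers. The authors' value table held the same ratios (maximum difference 0).

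From these, background was handled by normexp with an offset of 50, and a loess of span 0.3 was fitted within each array, in limma 3.58.1 (R 4.3.3). Control spots (1639 of 45018) and outlier spots had weight 0 in the loess, and outlier readings (1112) were left out. Repeat spots were averaged, giving 41012 probes. Probes entered the test if 1 channel was marked well above background on 3 or more of its 4 arrays (24941 probes), and a gene was read from its brightest such probe. Channel levels come from an Aquantile step that leaves the ratios as they are. The ratio was tested against 0 with lmFit and eBayes, two-sided, Benjamini-Hochberg over 22193 genes, or over 24872 probes where single probes are given, threshold 0.05. The fit was also run on simulated data with independent normal noise and known changes, which does not show how it performs on these arrays. The number of arrays limits the precision.

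Names were updated through RefSeq (GRCr8, names alone), and all 9 genes matched. Unmatched array names were kept as they stood and may repeat a gene. Exon positions of probes were not analysed here. The pairing is stated in the labels, and channels of the same array correlated at 0.061 to 0.26 after removal of group means, against at most 0.051 between arrays. Channels of 1 array also share its spots and hybridization, so this correlation cannot show that the samples were paired. The members and gene lists were chosen with earlier results of these data known. Named genes are the 9 members with every probe; in each surrounding list, the genes past the threshold or else the 2 with the smallest p; in each marker list, up to 3 past the threshold; and the 3 most like Glul, of which 1 is not reported here. Alternatives covered the filter, background correction, normalization, outlier spots, the choice of probe, the pairing and each replicate.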

Additional observations from a re-analysis of the deposited data

How the results depend on the processing

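Over 69 alternatives for the 6 tested genes, 65 kept the direction and the side of the threshold. Slc1a2 turned to 0.119 with median centring, 0.141 without replicate 1 and 0.204 without replicate 3, and ranged from -0.385 to 0.204 as each replicate was left out. Glul passed with no replicate block (-2.37, adjusted p 0.0144), which ignores the pairing stated in the labels, and its ratio ranged from -3.28 to -2.16 over the alternatives. Glud1 ranged from -2.73 to -0.26. The fit with no replicate block gave 1 of the 9 genes and 2 of the 17 probes past the threshold, both of Glul. When background was not corrected, 1 probe passed, Glul probe 2 (adjusted p 0.0442), and the scanner software's ratios also passed 1, the same probe (0.0371). With no replicate block, 152 genes were higher and 156 lower. With no filter on dim probes the counts were 37 and 52, and 0 genes of the surrounding lists passed. With the scanner's ratios they were 113 and 154. Leaving out any 1 replicate gave 0 to 0 genes higher, 0 to 0 lower and 0 to 0 genes of the surrounding lists (limma, 1885 to 2384 genes at an unadjusted p under 0.05). Fewer arrays were fitted there. Otherwise the cause was not tested. Median centring moved the median of all genes to 0.128, against -0.0266 as reported. Of the 17 probes, 9 were too dim to test, so signal over background limits Slc1a1, Slc1a3 and Slc38a3.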

Other observations

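Several genes of the surrounding lists, picked after their values were seen, had levels that did not overlap between the populations without passing the threshold. Slc7a5, the large neutral amino acid transporter subunit that exchanges glutamine for leucine, was 1.46 ± 1.1 on the log2 ratio scale (SD, n = 4; limma adjusted p = 0.367), positive on all 4 arrays, with 3.11 on replicate 1 and 0.83 to 0.95 on the others. Ppat, the enzyme that uses glutamine in the first step of purine synthesis, was -0.68 ± 0.39 (SD, n = 4; limma adjusted p = 0.44) and negative on all 4 arrays. It was well above background on 1 array of p75High cells and 4 arrays of p75Low cells, so it was tested through p75Low cells alone, and its p75High levels (6.13 to 6.43) lay mostly at background.

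The brightest probe of the AMPA receptor subunit Gria2 gave the ratio farthest from 0 among the tested glutamate receptors, 3.00 ± 3.07 (SD, n = 4; limma adjusted p = 0.426). It read -0.48, 3.79, 1.91 and 6.79 on replicates 1 to 4, so 3 of 4 arrays were positive and the spread exceeded the mean. Its second kept probe read -0.28 ± 0.71 (SD, n = 4), with 2 of 4 arrays positive.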
